A study of Homo sapiens with 31 samples.

Results

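The epithelial–mesenchymal transition (EMT) is the change by which epithelial cells loosen their junctions and take on mesenchymal traits. Its classical inducers are transcription factors of the ZEB, SNAI and TWIST families, which repress epithelial genes such as CDH1, while grainyhead-like and OVO-like factors keep epithelial genes on and the ESRP proteins impose epithelial splicing. In ovarian cancer cells both programs are known to occur, often mixed within a single line. The 10 genes described here were taken by name from the 19221 genes of the deposited table. They are 6 inducers (ZEB1, ZEB2, SNAI1, SNAI2, TWIST1 and TWIST2) and 4 epithelial counterparts (GRHL2, OVOL1, ESRP1 and ESRP2).

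mRNA was sequenced in 31 libraries of cell lines used as models of ovarian cancer, in 4 labelled groups. The study describes C13* as resistant to cisplatin and concedes that its origin makes its use open to question. It also cites a report that A2780 is an unlikely model of high-grade serous ovarian cancer. A2780 (n = 8) was the untreated parent line, and A2780 OlaR (n = 8) was the strain raised from it under rising exposure to olaparib, an inhibitor of PARP, until it tolerated the drug. C13* shCON (n = 7) carried a control shRNA, and C13* shCEBPB (n = 8) carried an shRNA delivered by lentivirus against CEBPB, the gene of the transcription factor C/EBPβ. The study asked what C/EBPβ knockdown and acquired olaparib resistance change in gene expression. All groups shared the same culture medium, no group was treated with a drug other than olaparib by its labels, and whether each strain was 1 clone is not given in the sources used here. The study's methods call the libraries biological replicates but do not say that they came from separate cultures, so p-values measure the spread between these libraries only. Values are FPKM, in which the fragment count of a gene is divided by the gene's length and the size of the library, and the absolute depth is unknown.

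Some facts of the libraries bear on every result below. Over 19221 genes, the correlation of log2(FPKM + 1) between libraries of a single group had medians of 0.996 to 0.998 (Pearson's r, across genes, which are not independent replicates). Between A2780 OlaR and C13* shCON, 2 groups labelled as different lines, the median r was 0.994 (range 0.990 to 0.995). It was 0.854 between A2780 and A2780 OlaR and 0.888 between C13* shCON and C13* shCEBPB, although each pair is labelled as the same line. The columns of the table carry the codes C (A2780 OlaR), O (A2780), CS (C13* shCON) and R (C13* shCEBPB), which were tied to groups by the sample descriptions alone. Whether the labels match the cells behind each column was not tested, so every group below is the group as labelled, and in each comparison the treatment and any difference of the cells cannot be told apart. The cell line field of shCON replicate 1 reads A2780, while its title reads C13*, and it was kept as shCON. CEBPB itself averaged 85.8 ± 9.93 FPKM in shCON (SD, n = 7) and 47.1 ± 9.05 in shCEBPB (n = 8), which is 54.9% of shCON. It averaged 99.7 ± 7.63 FPKM in A2780 and 112 ± 11.6 in A2780 OlaR. Relative depth, read from the steps of low FPKM, spanned 1.42 times from the lowest to the highest library.

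All 4 epithelial counterparts fell in C13* shCEBPB against C13* shCON, and all 4 rose in A2780 OlaR against A2780. The inducers did not move as a block in either comparison. With shCEBPB, 3 of the 6 inducers rose (ZEB1, ZEB2 and SNAI1) and 3 fell (SNAI2, TWIST1 and TWIST2). With OlaR, 2 of the 5 tested inducers rose (SNAI2 and TWIST2), 2 fell (ZEB1 and TWIST1), and SNAI1 did not pass the test. Changes were tested with limma on log2(FPKM + 1), and a gene counted as called (a DEG) at an adjusted p under 0.05. In the C13* comparison, 84.7% of the 12006 genes tested were called (38.9% higher and 45.7% lower), so 10 of 10 members called is close to what all genes gave. In the A2780 comparison, 89.8% of 12458 genes were called (40.1% higher and 49.7% lower), beside 8 of the 9 members tested. Changes of at least 2-fold on this scale were found for 7 members in each comparison, against 29.5% of all genes in C13* and 35.7% in A2780. The libraries of both groups did not overlap for 8 of the 10 members in C13*, beside 66% of all genes tested, and for 8 of the 9 in A2780, beside 74.1%. Genes were tested only if enough libraries reached 1 FPKM. In C13*, ZEB1, ZEB2, GRHL2, OVOL1 and ESRP1 passed this filter only through the group where they were high. In A2780 the same held for ZEB1, SNAI2, GRHL2, OVOL1 and ESRP2. For these genes a call and a lack of overlap were largely set by the filter. In bulk RNA, fewer cells that express a gene and less RNA per cell cannot be told apart, and this holds for each value below.

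**Figure D1:**
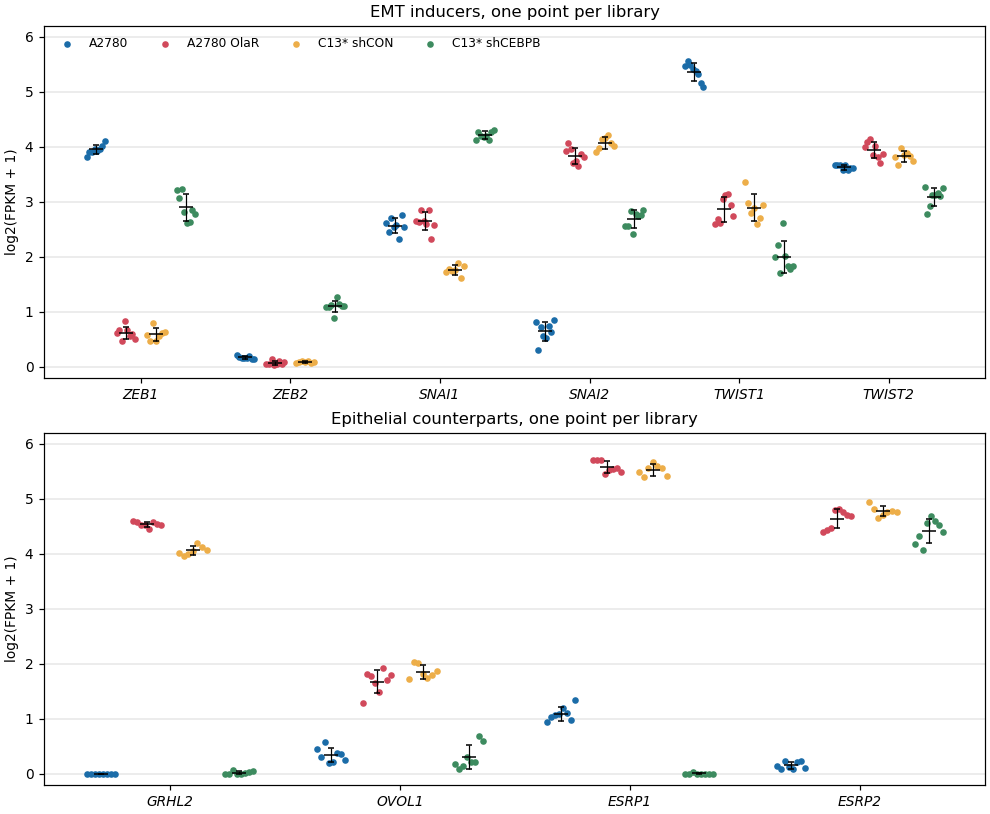
Level of each of the 10 genes as log2(FPKM + 1), 1 point per library, with the 6 inducers above and the 4 epithelial counterparts below. Horizontal bars are group means and error bars are SD (n = 8, and n = 7 for C13* shCON). GRHL2 and ESRP1 lie at or near 0 in C13* shCEBPB and above 4 and 5 in A2780 OlaR, and ESRP2 stays above 4 in C13* shCEBPB.

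ZEB1 encodes a zinc finger and homeodomain protein that binds E-boxes and represses epithelial genes, CDH1 among them. The gene lies on chromosome 10 of hg38 from 31318495 to 31529814 on the plus strand, and 396 of its exonic bases are shared with the antisense gene ZEB1-AS1. The sources used here do not state whether reads were counted by strand, so reads of such partners cannot be told apart. In A2780 the lowest, median and highest libraries had 13.1, 14.3 and 16.2 FPKM of ZEB1, and in A2780 OlaR they had 0.379, 0.523 and 0.783. Every OlaR library was thus far under every A2780 library. The mean was 27.0 times higher in A2780 than in OlaR, and the log2 difference was -3.33 (SE 0.05, adjusted p = 1.09e-21), or -3.22 relative to the median of all genes. In C13* shCON the ZEB1 libraries ran from 0.385 to 0.740 FPKM (median 0.494), and in shCEBPB from 5.13 to 8.41 (median 6.11). Here the shCEBPB libraries were all above the shCON libraries, with a mean 12.9 times as high and a log2 difference of 2.31 (SE 0.09, adjusted p = 7.01e-14). In both comparisons ZEB1 passed the filter only through the higher group, so the lack of overlap was largely set by it. In the order of the 4 groups, A2780 stood first and shCEBPB next, 1.05 lower on the log2 scale (adjusted p = 1.20e-14). A2780 OlaR and shCON stood last, 0.03 apart, and did not differ beyond their spread (adjusted p = 0.822).

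Among the few members with a promoter sequence at hand, only ZEB1 had E-boxes of the form bound by ZEB and SNAI factors. They are shown because the gene had opposite changes in the 2 comparisons, which TWIST2 and other members also had. RefSeq promoters (GRCh38.p14) matched 3 of the 10 members, namely ZEB1, ZEB2 and TWIST2. The 250 bases before the start of ZEB1 held CACCTG, or CAGGTG on the other strand, at 2 places, the first at 242 to 237 bases and the other at 85 to 80 bases before the start. Both windows are written 5′ to 3′ on the plus strand, with the E-box in capitals.
ZEB1 distal window, chr10:31318966-31318995: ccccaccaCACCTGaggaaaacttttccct
ZEB1 proximal window, chr10:31319119-31319148: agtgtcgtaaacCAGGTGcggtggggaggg
In GENCODE 44 both E-boxes lie within exons of other ZEB1 transcripts, and the distal E-box also lies within an exon of ZEB1-AS1 on the opposite strand. CACCTG or CAGGTG was present in 17.5% of 35116 promoters of the same length, and any E-box (CANNTG, which includes those forms) in 61.8%. The window of ZEB2 held no CACCTG and 1 CANNTG, and that of TWIST2 held neither. The window of GRHL3, a relative of the members, held CACCTG or CAGGTG at 1 place. The grainyhead motif AACCGGTT (0.117% of promoters) and its forms AACCNGTT or AACNGGTT (1.49%) were not in the window of ZEB1, ZEB2 or TWIST2, which says only that these letters are not there.

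ZEB2, the paralog of ZEB1 with the same kind of DNA-binding domains, was the least abundant inducer. The gene spans chromosome 2 from 144364364 to 144521057 on the minus strand and shares 1299 exonic bases with ZEB2-AS1. In shCEBPB its lowest, median and highest libraries had 0.853, 1.15 and 1.41 FPKM. In the other groups no library reached 1 FPKM, with medians of 0.119 in A2780, 0.0395 in A2780 OlaR and 0.0572 in shCON. The log2 difference between shCEBPB and shCON was 1.02 (SE 0.04, adjusted p = 1.70e-13), and ZEB2 passed the filter on low values only through the shCEBPB libraries. In the A2780 comparison ZEB2 did not pass the filter. There its log2 difference was -0.10 (two-sided exact permutation test, p = 0.000466), at levels of at most 0.166 FPKM, and the libraries of A2780 and OlaR overlapped. ZEB1 was above ZEB2 in every library, by a median of 120 times in A2780 and 6.0 times in shCEBPB.

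SNAI1 encodes Snail, a zinc finger repressor of CDH1 whose protein is short-lived and turned over by ubiquitin ligases. The SNAI1 gene lies at 49982980 to 49988886 on the plus strand of chromosome 20. In shCON its lowest, median and highest libraries had 2.08, 2.37 and 2.69 FPKM, and in shCEBPB they had 16.4, 17.3 and 18.8. No library of shCEBPB came near those of shCON. The mean was 7.31 times as high in shCEBPB, with a log2 difference of 2.45 (SE 0.05, adjusted p = 9.75e-19). SNAI1 libraries ran from 3.99 to 5.74 FPKM in A2780 (median 4.89) and from 4.01 to 6.2 in OlaR (median 5.25), so those groups overlapped. Their log2 difference was 0.08 (SE 0.07, adjusted p = 0.294), and an exact permutation test gave p = 0.309. Since the median of all genes stood at -0.12 in this comparison, SNAI1 was 0.20 above it. Whether SNAI1 passed the test depended on the scaling. It passed after quantile normalization (log2 difference 0.23, adjusted p = 0.00522) and after scaling by the median ratio (0.20, adjusted p = 0.0150). With scaling to a common sum it did not pass (0.02, adjusted p = 0.782).

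SNAI2 encodes Slug, a paralog of Snail that is also active in basal epithelial cells and in the neural crest, and its gene is on chromosome 8. In A2780 its lowest, median and highest libraries had 0.230, 0.597 and 0.793 FPKM, and in A2780 OlaR they had 11.5, 13.4 and 15.8. SNAI2 was thus low throughout A2780 and well expressed throughout OlaR. In this comparison SNAI2 passed the filter only through the OlaR libraries. The mean was 23.4 times as high in OlaR, with a log2 difference of 3.20 (SE 0.08, adjusted p = 1.21e-18), or 3.32 relative to the median of all genes. In shCON the SNAI2 libraries ran from 14.0 to 17.6 FPKM (median 15.8), and in shCEBPB from 4.31 to 6.22 (median 5.70). All shCEBPB libraries lay under all shCON libraries, and the log2 difference was -1.38 (SE 0.07, adjusted p = 2.24e-12), with the mean at 34.7% of shCON.

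Which of SNAI1 and SNAI2 had the higher FPKM within a library therefore switched between the groups. SNAI1 was above SNAI2 in all 8 A2780 libraries (median ratio 9.34) and in all 8 shCEBPB libraries (median ratio 3.11). SNAI2 was above SNAI1 in all 8 OlaR libraries (median ratio 2.53) and in all 7 shCON libraries (median ratio 6.52). FPKM are per length, so ratios between genes, here and elsewhere, depend on the gene lengths used. The annotation behind those lengths is not given in the sources used here. SNAI1 and SNAI2 were also called between OlaR and shCON, where 37.7% of all genes were called. SNAI1 was 0.88 lower in shCON than in OlaR on the log2 scale (adjusted p = 4.75e-13), and SNAI2 was 0.23 higher (adjusted p = 0.0192). The SNAI2 libraries of these groups overlapped.

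**Figure D2:**
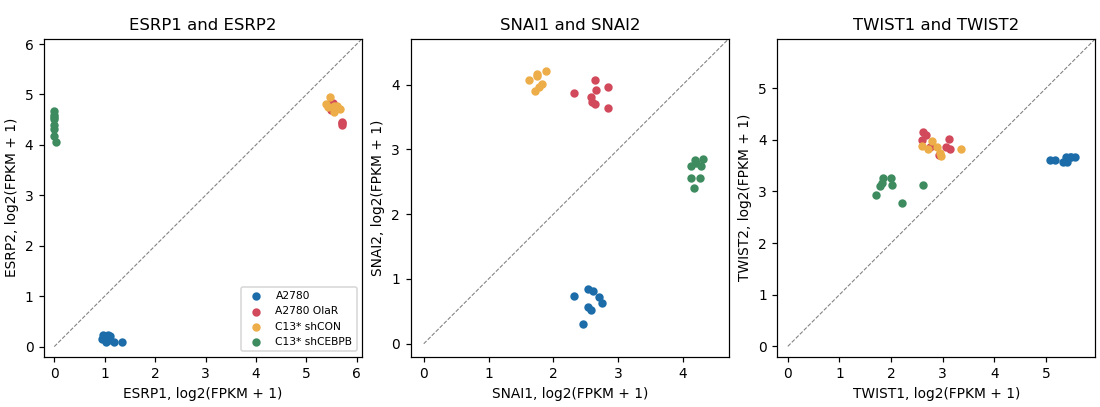
Each panel sets log2(FPKM + 1) of a gene (x axis) against its paralog (y axis), 1 point per library, and the dashed line marks equal levels. For ESRP1 and ESRP2 the 8 C13* shCEBPB libraries stand on or beside the y axis, and for SNAI1 and SNAI2 the groups lie on both sides of the line.

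TWIST1 encodes a basic helix-loop-helix protein of mesoderm and neural crest development that induces EMT in carcinoma cells. The gene is found on chromosome 7 from 19020991 to 19117636 on the minus strand. TWIST1 had the highest level of the 6 inducers in A2780, with 32.8, 41.1 and 46 FPKM in the lowest, median and highest libraries. In A2780 OlaR it had 5.03, 6.18 and 7.82. The OlaR libraries all lay under the A2780 libraries, with a log2 difference of -2.50 (SE 0.09, adjusted p = 1.12e-15), or -2.38 relative to the median of all genes. The TWIST1 libraries ran from 5.06 to 9.20 FPKM in shCON (median 6.39) and from 2.26 to 5.10 in shCEBPB (median 2.77). These groups overlapped at their edges. The log2 difference was -0.89 (SE 0.13, adjusted p = 3.59e-06; exact permutation test, p = 0.000622), and -0.82 without shCON replicate 1, the highest shCON library.

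TWIST2, also named Dermo1, encodes a close relative of TWIST1 known from dermis and bone. Its position is chromosome 2 from 238848032 to 238910534 on the plus strand. On the log2(FPKM + 1) scale its group means spanned the narrowest range of the members. In A2780 the lowest, median and highest libraries had 10.9, 11.4 and 11.7 FPKM, and in OlaR they had 12.1, 14.3 and 16.6. Every OlaR library was above every A2780 library, by a log2 difference of 0.31 (SE 0.05, adjusted p = 2.67e-05), or 0.43 relative to the median of all genes. In shCON the TWIST2 libraries ran from 11.8 to 14.8 FPKM (median 13.2), and in shCEBPB from 5.85 to 8.61 (median 7.72). TWIST2 fell in shCEBPB without overlap, by 0.73 on the log2 scale (SE 0.07, adjusted p = 1.93e-08), to 57.4% of shCON. TWIST1 was above TWIST2 in all 8 A2780 libraries (median ratio 3.66) and in no library of the other groups.

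GRHL2 encodes a grainyhead-like factor that binds and activates CDH1, claudin and other junction genes and is known to repress ZEB1, and its gene is on chromosome 8. All 8 libraries of A2780 listed GRHL2 at 0, and it had 20.9, 22.1 and 23.2 FPKM in the lowest, median and highest OlaR libraries. It had 14.6, 15.6 and 17.2 FPKM in shCON, and in shCEBPB it was listed at 0 in 4 of 8 libraries and reached 0.0458 in the highest. GRHL2 was thus present in 2 groups and listed at or near 0 in the other two. The log2(FPKM + 1) difference was -4.04 in the C13* comparison (SE 0.04, adjusted p = 7.28e-23) and 4.54 in the A2780 comparison (SE 0.03, adjusted p = 2.43e-27), or 4.66 relative to the median of all genes, and no fold is given against groups at 0. GRHL2 was also 0.48 lower in shCON than in OlaR (adjusted p = 5.11e-14), without overlap.

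OVOL1 encodes an OVO-like zinc finger repressor that acts in epidermal differentiation and is known to hold down ZEB1. It lies on chromosome 11 from 65787063 to 65797214 on the plus strand and shares 1039 exonic bases with an antisense gene. Its level was low in all groups. In shCON the lowest, median and highest libraries had 2.30, 2.51 and 3.11 FPKM of OVOL1, and in shCEBPB they had 0.0657, 0.160 and 0.603. OVOL1 fell in shCEBPB to 9.35% of shCON, with a log2 difference of -1.55 (SE 0.09, adjusted p = 9.31e-12). In A2780 it ran from 0.147 to 0.486 FPKM (median 0.257), and in OlaR from 1.43 to 2.79 (median 2.34). The mean was 8.25 times as high in OlaR, with a log2 difference of 1.34 (SE 0.08, adjusted p = 3.14e-12), or 1.46 relative to the median of all genes. Neither comparison had overlapping libraries for OVOL1. It was under 1 FPKM throughout shCEBPB and A2780, so this lack of overlap was largely set by the filter.

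ESRP1 encodes the epithelial splicing regulatory protein that favors the epithelial isoforms of FGFR2, CD44 and CTNND1. It lies on chromosome 8. ESRP1 was listed at 0 in 7 of the 8 shCEBPB libraries, and replicate 3 had 0.0262 FPKM. In shCON its lowest, median and highest libraries had 40.8, 45.9 and 49.8 FPKM. No other member fell as far in the C13* comparison, where the log2(FPKM + 1) difference was -5.52 (SE 0.04, adjusted p = 6.14e-24). In A2780 the ESRP1 libraries ran from 0.928 to 1.53 FPKM (median 1.11), and in OlaR from 42.5 to 51.1 (median 45.7). The mean was 41.2 times as high in OlaR, with a log2 difference of 4.49 (SE 0.06, adjusted p = 4.75e-23), or 4.61 relative to the median of all genes. A2780 thus kept a low level of ESRP1 in each library, 1.09 above shCEBPB on the log2 scale (adjusted p = 7.10e-20).

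ESRP2 encodes the paralog of ESRP1 with overlapping splicing targets. It lies on chromosome 16 from 68229033 to 68238102 on the minus strand, and 227 of its exonic bases are shared with NFATC3 on the opposite strand. In A2780 the lowest, median and highest libraries had 0.0659, 0.0975 and 0.176 FPKM of ESRP2, and in OlaR they had 20.1, 24.9 and 27.3. The mean was 213 times as high in OlaR, with a log2 difference of 4.48 (SE 0.06, adjusted p = 2.47e-22), or 4.6 relative to the median of all genes. ESRP2 libraries ran from 24.1 to 29.8 FPKM in shCON (median 26.2) and from 15.7 to 24.6 in shCEBPB (median 21.0). The groups overlapped, and ESRP2 fell to 77.8% of shCON, by 0.36 on the log2 scale (SE 0.08, adjusted p = 0.000601; exact permutation test, p = 0.000622). Within library numbers 1 to 3 of the sample codes the fall was -0.61 (adjusted p = 0.000189) and within 4 to 8 it was -0.20 (adjusted p = 0.00458).

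ESRP2 was thus the epithelial counterpart that remained expressed in shCEBPB, beside ESRP1 at 0 in most of the same libraries. ESRP1 was above ESRP2 in all 8 A2780 libraries (median ratio 10.7), in all 8 OlaR libraries (median ratio 1.80) and in all 7 shCON libraries (median ratio 1.74), and in none of the 8 shCEBPB libraries. ZEB1 and ESRP2 were both expressed in each shCEBPB library, with ESRP2 at 1.87 to 4.81 times ZEB1. ZEB1 exceeded ESRP2 by a median of 143 times in A2780, and ESRP2 exceeded ZEB1 by a median of 47.1 times in OlaR and 55.2 times in shCON.

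**Figure D3:**
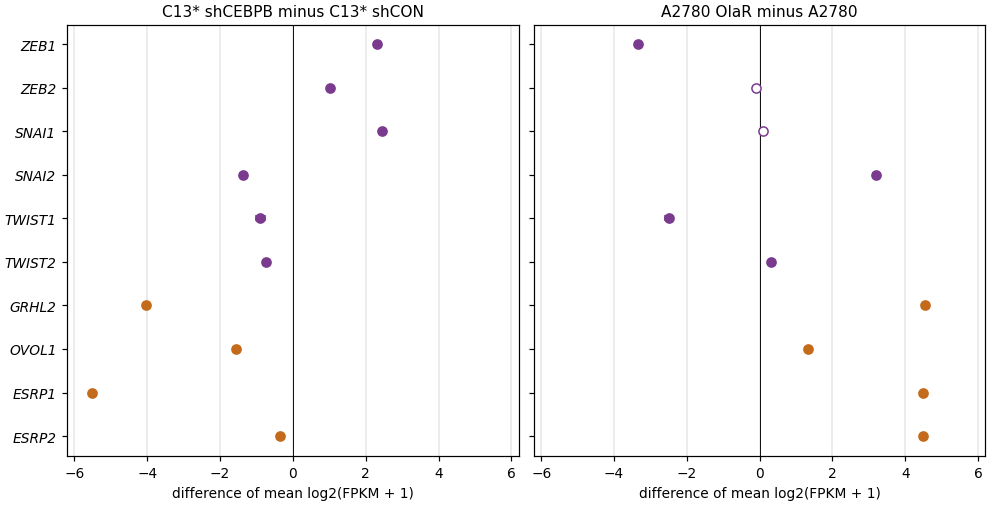
Difference of mean log2(FPKM + 1) for each of the 10 genes, C13* shCEBPB minus C13* shCON at left and A2780 OlaR minus A2780 at right, with inducers in purple and epithelial counterparts in orange. Bars are SE, mostly smaller than the points, and open circles are genes not called or not tested. The 4 epithelial counterparts lie left of 0 in C13* and right of 0 in A2780, and ESRP2 moves from 4.48 in A2780 to -0.36 in C13*.

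The order of the 4 groups was then read from a single fit of all libraries. Of the 30 pairs of groups that stand next to each other in the order of a member's level, 20 were called. Neighbours were set by each member's own levels, and the share of such pairs called over all genes was not computed. The shares that follow are for fixed pairs of groups. Over all 12967 genes of this fit, 37.7% were called between OlaR and shCON, 84.3% between shCEBPB and shCON, 84.8% between shCEBPB and OlaR, 87.6% between shCON and A2780, and 88% both between OlaR and A2780 and between shCEBPB and A2780. Between A2780 OlaR and shCON, 3 of the 10 members were called (SNAI1, SNAI2 and GRHL2), none by 2-fold, beside 0.532% of all genes by 2-fold. The median size of the members' log2 differences was 0.13 there. Between shCEBPB and A2780, 8 of 10 members were called, 4 in each direction and 6 by at least 2-fold, beside 36.9% of all genes by 2-fold. These groups, in which GRHL2 and OVOL1 were both low, differed most in ESRP2, which was 4.26 higher in shCEBPB on the log2 scale (adjusted p = 4.55e-32). TWIST1 was 3.36 higher in A2780 (adjusted p = 9.10e-24). SNAI2 was 2.04 higher in shCEBPB (adjusted p = 9.58e-23), and SNAI1 was 1.65 higher there (adjusted p = 1.49e-22). GRHL2 (adjusted p = 0.564) and OVOL1 (adjusted p = 0.674) did not differ beyond their spread between shCEBPB and A2780.

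Relatives of the members were followed as well. OVOL2, an OVO-like factor known as an antagonist of EMT, averaged 9.54 ± 0.650 FPKM in shCON and 0.236 ± 0.203 in shCEBPB, with a log2 difference of -3.11 (SE 0.09, adjusted p = 3.68e-16). It averaged 2.04 ± 0.535 FPKM in A2780 and 9.0 ± 1.26 in OlaR, with a log2 difference of 1.73 (SE 0.10, adjusted p = 1.97e-12). GRHL3, a grainyhead-like factor of the epidermal barrier, had log2 differences of -1.30 in C13* (adjusted p = 1.40e-11) and 1.86 in A2780 (adjusted p = 2.07e-18). GRHL1 had smaller differences of -0.40 (adjusted p = 2.70e-05) and 0.36 (adjusted p = 3.21e-05), with means between 3.73 and 5.50 FPKM in all groups. OVOL2, GRHL3 and GRHL1 thus fell and rose together with GRHL2 and OVOL1. OVOL2 in C13* and GRHL3 in both comparisons were under 1 FPKM throughout 1 group and passed the filter only through the other. SNAI3, the third Snail gene, did not pass the filter in C13*, where its log2 difference was -1.03, and it rose by 0.18 in A2780 (adjusted p = 0.0229) with overlapping libraries. OVOL3 passed the filter in neither comparison.

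Known targets of the EMT factors and other gene lists were read beside the members. Of all genes tested, 38.9% rose and 45.7% fell in C13*, and 40.1% rose and 49.7% fell in A2780. Each list count below is to be read beside these shares. CDH1, the epithelial cadherin, averaged 82.9 FPKM in shCON and 0.655 in shCEBPB, and 0.0280 in A2780 and 99.5 in OlaR. EPCAM, an epithelial adhesion molecule, averaged 111 FPKM in shCON and 0.567 in shCEBPB, and 1.20 in A2780 and 116 in OlaR. VIM, the mesenchymal filament protein vimentin, averaged 9.82 FPKM in shCON and 342 in shCEBPB, and 809 in A2780 and 0.160 in OlaR. Of the 32 genes of the epithelial list, 26 fell and 4 rose in shCEBPB (median log2 difference -2.41, beside -0.07 over all genes), and 29 rose and 3 fell in OlaR (median 4.04, beside -0.12). The keratin KRT19 had the largest fall, from 1470 to 0.0306 FPKM, and rose from 0.197 to 1836 in OlaR. SPINT2, an inhibitor of cell surface proteases, fell from 238 to 0.319 FPKM in shCEBPB. Against the list's direction, KLF4, a factor of epithelial differentiation, rose from 10.2 to 75.7 FPKM in shCEBPB and the keratin KRT8 rose from 459 to 882. In OlaR the junction genes OCLN (22.3 to 3.13 FPKM) and TJP3 (15.6 to 4.07) fell.

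The mesenchymal list was less uniform. Of its 28 genes, 16 were tested in C13*, where 9 rose and 7 fell in shCEBPB (median 0.99). In A2780, 20 were tested, and 5 rose and 15 fell in OlaR (median -1.78). S100A4, a calcium-binding protein of motile cells, rose from 4.01 to 629 FPKM in shCEBPB, and the collagen gene COL5A1 rose from 0.0118 to 65.5. TAGLN, an actin-binding protein, fell from 4.77 to 0.830 FPKM in shCEBPB, and the matrix gene TNC fell from 2.11 to 0.00132. In OlaR the collagen gene COL3A1 fell from 358 to 0.00772 FPKM, beside VIM. The matrix genes TGFBI (0.0123 to 72.3 FPKM) and FN1 (0.524 to 7.70) rose in OlaR.

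**Figure D4:**
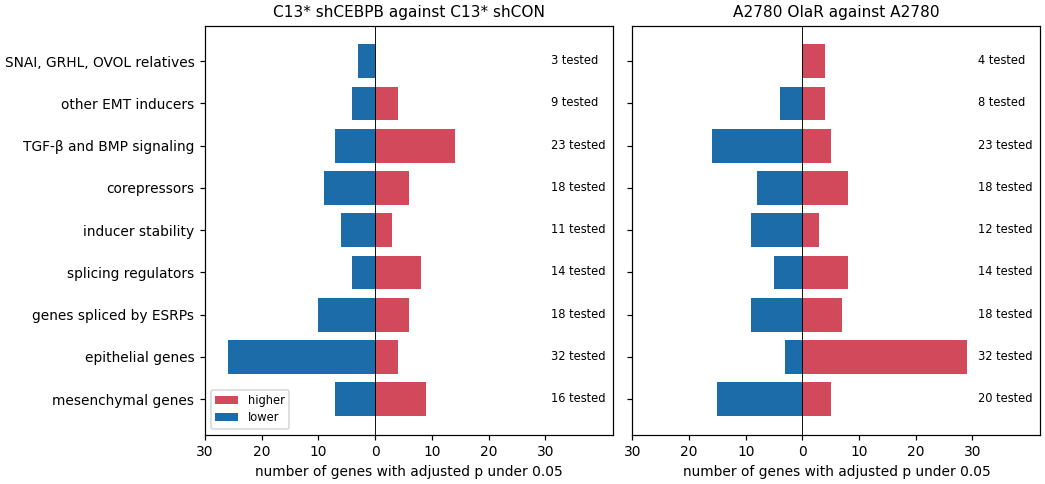
Number of genes of each list with an adjusted p under 0.05, higher to the right in red and lower to the left in blue, in C13* shCEBPB against shCON (left) and A2780 OlaR against A2780 (right), with the number tested at the right edge. The epithelial list has 26 genes lower in C13* and 29 higher in A2780, and the corepressor and splicing lists have calls on both sides.

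Other EMT inducers were mixed in both comparisons. Of 13 genes in the table, 9 were tested in C13*, of which 4 rose and 4 fell (median 0.07), and 8 in A2780, of which 4 rose and 4 fell (median -0.02). FOXC2, a forkhead factor of mesenchyme, rose from 0.670 to 28.4 FPKM in shCEBPB, and SOX4 rose from 9.67 to 13.2. HMGA2, a chromatin protein downstream of TGF-β, fell from 22.4 to 3.28 FPKM in shCEBPB and from 36.7 to 13.7 in OlaR. FOXQ1, a forkhead factor, rose from 0.0384 to 40.2 FPKM in OlaR, and SOX9 rose from 0.0318 to 7.29. HMGA2 thus fell in both comparisons, as TWIST1 did.

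TGF-β and BMP signaling, an upstream input to SNAI and ZEB genes, was covered by 24 genes, of which 23 were tested. In shCEBPB 14 rose and 7 fell (median 0.50), and in OlaR 5 rose and 16 fell (median -0.46). ENG, a coreceptor of TGF-β, rose from 0.958 to 52.9 FPKM in shCEBPB, and SMAD6, an inhibitory SMAD, rose from 1.08 to 25.4. The ligand gene BMP4 fell from 16.3 to 0.271 FPKM in shCEBPB, and SMAD3, which carries the TGF-β signal, fell from 28.8 to 7.20. In OlaR BMP4 rose from 0.294 to 18.8 FPKM and SMAD3 from 7.35 to 30.3, while SMAD6 fell from 15.7 to 1.79. The ligand gene TGFB2 fell from 22.4 to 1.25 FPKM in OlaR.

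Corepressors recruited by the inducers were mostly expressed in all groups, and all 18 were tested. In shCEBPB 6 rose and 9 fell (median -0.08), and in OlaR 8 rose and 8 fell (median 0.06). AJUBA, a LIM protein that binds Snail, fell from 121 to 25.5 FPKM in shCEBPB and rose from 68.5 to 103 in OlaR. WTIP, a LIM protein of the same family, rose from 1.12 to 3.63 FPKM in shCEBPB and fell from 15.2 to 0.947 in OlaR. SUV39H1, a histone H3 lysine methyltransferase, rose from 1.26 to 37.1 FPKM in OlaR and fell from 33.6 to 18.7 in shCEBPB. CTBP1, a corepressor of ZEB1, rose from 27.3 to 49.8 FPKM in shCEBPB, and the methyltransferase gene SETDB1 fell from 31.1 to 17.0 in OlaR.

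Genes for the turnover or activity of the inducer proteins numbered 13 in the table. In C13* 11 were tested, of which 3 rose and 6 fell (median -0.44), and in A2780 12 were tested, of which 3 rose and 9 fell (median -0.44). PAK1, a kinase that phosphorylates Snail, fell from 30.5 to 5.12 FPKM in shCEBPB, and FBXW7, a substrate receptor of a ubiquitin ligase, fell from 11.7 to 3.16. BTRC, which targets Snail to the proteasome, rose from 4.80 to 8.94 FPKM in shCEBPB, and the kinase gene LATS2 rose from 7.22 to 11.9. In OlaR LATS2 fell from 45.8 to 5.24 FPKM, the ubiquitin ligase gene SIAH1 fell from 13.4 to 4.06, and FBXW7 rose from 7.04 to 10.4.

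Splicing regulators that act beside or against the ESRP proteins were all tested (14 genes). In shCEBPB 8 rose and 4 fell (median 0.36), and in OlaR 8 rose and 5 fell (median 0.19). RBM24 rose from 0.0662 to 8.32 FPKM in shCEBPB and fell from 12.4 to 0.00252 in OlaR. CELF2 fell from 9.20 to 2.61 FPKM in shCEBPB and rose from 0.00309 to 10.0 in OlaR. QKI, a regulator of mesenchymal splicing, fell from 19.7 to 3.49 FPKM in OlaR, and RBM47, a regulator of epithelial splicing, fell from 12 to 4.11 in shCEBPB. MBNL3 rose from 1.76 to 9.58 FPKM in shCEBPB, and MBNL2 rose from 7.91 to 26.7 in OlaR.

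Genes whose transcripts the ESRP proteins are known to splice showed no common direction of gene level. Of 18 tested, 6 rose and 10 fell in shCEBPB (median -0.21), and 7 rose and 9 fell in OlaR (median -0.11). FGFR1 rose from 2.63 to 12.8 FPKM in shCEBPB and fell from 19.7 to 3.15 in OlaR. FGFR2 fell in both, from 5.01 to 0.245 FPKM in shCEBPB and from 40.8 to 5.43 in OlaR. EPB41L5 fell from 12.2 to 1.78 FPKM in shCEBPB and CD46 rose from 106 to 194, while CD44 rose from 0.00121 to 62.6 and SCRIB from 21.9 to 63.2 in OlaR. FPKM per gene do not show isoforms, so splicing itself was not measured here.

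The genes whose pattern was most like that of each member over the 31 libraries were found by Pearson's r of log2(FPKM + 1). The libraries fall into 4 groups, so r mostly reflects the order and spacing of 4 group means. For GRHL2 they were INPP5D, FAT2 and MUC4 (r = 0.9997 each). INPP5D, for example, averaged 36.5 FPKM in OlaR, 25.2 in shCON and under 0.03 in both other groups. For ESRP1 they were MYO1D, GM2A and C1orf21 (r from 0.998 to 0.999), and for ESRP2 they were FAM83G, TUBB4B and GPX1 (r from 0.998 to 0.999). GPX1 averaged 419 FPKM in OlaR, 415 in shCON, 290 in shCEBPB and 0.313 in A2780. For OVOL1 they were CDKN1A, ARTN and TLDC1 (r from 0.977 to 0.981). Among inducers, ZEB1 was most like HMGN5, SPIN4 and ZNF83 (r = 0.997 each), and genes near ZEB2 were CSGALNACT1 and CADM1 (r = 0.992 each). HMGN5 averaged 26.0 FPKM in A2780, 9.70 in shCEBPB and at most 0.0410 in OlaR and shCON. SNAI1 was most like SMARCD1, SFT2D3 and CYP1B1 (r from 0.971 to 0.982), and SNAI2 most like CAV2, RRM2 and RIN2 (r from 0.994 to 0.996). TWIST1 was most like ZFYVE28, EPOR and ADGRL1 (r from 0.987 to 0.989). TWIST2 had the lowest values, with TENM3, AKIRIN2 and MOB3A (r from 0.949 to 0.952).

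Markers of other cell types moved with the groups as well, and their part in the results was not tested. The summed FPKM of 7 squamous markers was 0.523 to 2.13 in A2780, 2984 to 3866 in OlaR, 3120 to 3700 in shCON and 220 to 525 in shCEBPB. All 7 had a mean of at least 1 FPKM in OlaR and shCON, and 1 had it in A2780 and 2 in shCEBPB. The basal keratin KRT5 was listed at 0 in A2780 and averaged 1813 FPKM in OlaR, 1530 in shCON and 0.0134 in shCEBPB. All 7 squamous markers fell in shCEBPB and rose in OlaR. Those under 1 FPKM throughout shCEBPB or A2780, KRT5 among them, passed the filter only through the other group. Their calls were thus largely set by the filter. The summed FPKM of 7 ovarian markers was 14.9 to 18.6 in A2780, 27.1 to 38.6 in OlaR, 35.7 to 41.9 in shCON and 998 to 1104 in shCEBPB, where FOLR1 averaged 887. Of the ovarian markers, PAX8 averaged 6.10 FPKM in shCON and 0.536 in shCEBPB, and 0.555 in A2780 and 6.0 in OlaR. SOX17 was at 0 in every A2780 and shCON library. In C13*, 4 ovarian markers were tested, of which 3 rose and 1 fell, and in A2780 3 were tested, of which 2 rose and 1 fell.

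The sum over 8 immune markers was 79.2 to 105 FPKM in A2780, 37.8 to 45.9 in OlaR, 63.0 to 70.5 in shCON and 11.4 to 14.2 in shCEBPB. The leukocyte gene PTPRC averaged 85.9 ± 7.94 FPKM in A2780 (n = 8) and 0.000789 in OlaR, while the T cell gene CD3E was at 0 in every library of all groups. In the other groups the sum was mostly CD68, a lysosomal protein, at 65.4 FPKM in shCON. Immune calls were 1 fall of 1 tested in C13*, and 1 rise and 1 fall of 2 in A2780. The sum over 6 endothelial markers stayed under 3 FPKM in every library. None of them was tested in C13*, and in A2780 1 of 1 tested rose, CDH5, at 1.43 FPKM in OlaR. The summed FPKM of the epithelial list was 240 to 258 in A2780, 4302 to 5031 in OlaR, 3983 to 4404 in shCON and 1598 to 1924 in shCEBPB. All 32 of its genes had a mean of at least 1 FPKM in OlaR and shCON, 18 in A2780 and 16 in shCEBPB. The mesenchymal list summed to 2185 to 2339 FPKM in A2780, 202 to 223 in OlaR, 179 to 198 in shCON and 1237 to 1506 in shCEBPB.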

How the data were processed

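The labels gave each sample's group and number, and columns were assigned by the library codes in the sample descriptions, which does not show that a label matches the cells. As the study's methods state, reads were 150 bp and paired-end, mapped to hg38 with TopHat and counted with HTSeq, and the authors tested the counts with edgeR. The values deposited by the authors and used here are FPKM for 31 libraries, and the tool and annotation behind them are not given in the sources used here. The raw counts were not used. Of 19225 entries, 4 with 2 repeated symbols were left out, and 1212 of the 19221 genes were at 0 in all libraries. The FPKM of a library summed to between 417556 and 454578. The steps of low values gave relative depths of 0.865 to 1.23 (91.7% of 7780 such values were within 0.05 of whole steps). The number of reads is unknown, so no counting error is given. No pair of libraries was identical.

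For each gene, log2(FPKM + 1) was fitted in limma 3.58.1 under R 4.3.3 by lmFit and then eBayes, whose prior variance followed expression. Tests were two-sided, and p-values were adjusted by Benjamini-Hochberg over all genes tested. This scale understates the change of low genes. Each comparison used its own 2 groups, and a gene was tested if the number of libraries with FPKM of at least 1 reached the size of the smaller group. A gene under 1 FPKM throughout 1 group passed only through the other, so its call was largely set by the filter. The order of the groups came from 1 fit of all 4 groups. Members also had a two-sided exact permutation test, whose smallest possible p was 0.000311 in C13* and 0.000155 in A2780. Counts of exons and positions came from GENCODE 44, and promoters from RefSeq (GRCh38.p14). Python 3.11.15, numpy 2.4.6, pandas 2.3.3, scipy 1.17.1 and matplotlib 3.10.9 were used. On simulated data the limma step found 98.0% of 200 changed genes among 12006 in the C13* comparison (2.49% of calls false). It found 97.5% among 12458 in the A2780 comparison (7.58% of calls false, above the threshold of 0.05). In the real comparisons 84.7% and 89.8% of genes were called, far more than were changed in the simulation. The simulated rates therefore need not hold for these data.

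The members and the gene lists were chosen with earlier results of these data known. Named genes are the members, their relatives, CEBPB, CDH1, EPCAM, VIM and KRT5, for each list the 2 largest rises and 2 largest falls among called genes whose libraries did not overlap, and for each member the 3 genes most like it. Some genes that this rule names are not reported here. The lists' genes TBXT and DUB3 were not matched. Alternatives were other pseudocounts, filters, scalings, fits, replicate blocks and library ranges, a fold of at least 2, and leaving out shCON replicate 1.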

Additional observations from a re-analysis of the deposited data

Results flagged for a closer look

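Among 59 groups of libraries checked for a library far from the rest, 3 had one, and chance gives about 1 in 20. TWIST1 in shCON replicate 1 was 9.20 FPKM, with the nearest library at 6.85. The gap was 0.568 of the range, at the critical value of 0.568. The TWIST1 difference in C13* was -0.82 without this library, still called. ESRP1 in shCEBPB replicate 3 was 0.0262 FPKM, while the other 7 libraries were listed at 0. GRHL3 in shCEBPB replicate 5 was 0.126 FPKM, with the nearest library at 0.321.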

How the results depend on the processing

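No member changed direction under any alternative. Of 148 alternative values for members in C13*, 145 had the same direction and side of the threshold, and 3 (TWIST1, TWIST2 and ESRP2) no longer passed when a fold of at least 2 was asked. Of 125 in A2780, 122 did, TWIST2 no longer passed with that fold, and SNAI1 newly passed after quantile normalization (0.23) and median ratio scaling (0.20). With that fold, 3539 genes were called in C13* and 4446 in A2780, in place of 10166 and 11190. Other alternatives called 7991 to 12746 genes in C13* and 8949 to 13711 in A2780, the extremes being a filter at FPKM 5 and no filter. OVOL1 and ZEB2 did not pass a filter at 5. A pseudocount of 0.01 raised the log2 differences of low genes, for example from 2.31 to 3.67 for ZEB1 and from 1.02 to 4.06 for ZEB2 in C13*. The median log2 difference of all genes in A2780 was -0.12 as deposited, -0.18 with a common sum, -0.03 after quantile normalization and 0.01 with the median ratio. With the replicate block, 9885 genes were called in C13* (9833 by library number) and 10960 in A2780, and no member's call changed. Same-numbered libraries did not deviate together (mean correlation -0.15 over 7 pairs in C13* and -0.23 over 8 in A2780). A library correlated best with its own number in 1 pair and in 0, so no pairing by number was seen within a comparison. In OlaR, library numbers 1 to 3 summed to at most 435413 FPKM and 4 to 8 to at least 448243. In shCEBPB these limits were 432575 and 443684, while in A2780 and shCON the ranges overlapped. Whether this split marks a batch was not tested. Called pairs in the order of the groups numbered 20 to 21 under 4 alternatives chosen after seeing the data. FPKM without read totals limit what can be said of genes near 0.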
